A study of Mus musculus with 8 samples.

Results

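The genes described here encode mitochondrial carriers of the Slc25 family. They were taken by name from the deposited table of ventricular RNA, as every row whose gene name begins with Slc25a followed by a number. This gave 39 of the 13677 rows, and all 39 were among the 13544 genes tested, those that reached a value of 1 in 2 or more libraries. The GENCODE M21 annotation lists 47 protein-coding genes with such names. The other 8 (Slc25a2, Slc25a18, Slc25a21, Slc25a31, Slc25a41, Slc25a43, Slc25a48 and Slc25a54) were not analysed here.

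Slc25 carriers are small proteins of the inner mitochondrial membrane that exchange nucleotides, phosphate, carboxylates, amino acids, acylcarnitines, metals and cofactors between the cytosol and the matrix. Heart muscle depends on a few of them for its energy supply, above all the ADP/ATP carrier Slc25a4, which hands ATP made in the matrix to the contracting cell, and the phosphate carrier Slc25a3, which brings in the phosphate for ATP synthesis. Carriers are made in the cytosol and are inserted into the inner membrane by the TIM22 translocase with the help of small Tim chaperones.

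The study measured polyadenylated RNA of mouse ventricular heart in 8 libraries: C (n = 3), KO (n = 2, numbered 1 and 3) and DKO (n = 3). The series text contrasts wild-type with Vhl-deficient ventricles in a Wt1-Cre model, in which Cre is driven from Wt1, known as an epicardial gene. The Vhl protein recognises hypoxia-inducible factors (HIF) for a ubiquitin ligase, which leads to their degradation. The labels spell out none of the 3 group names, do not name the second change of DKO, and give no age, sex, strain or share of recombined cells; no treatment was applied to any group. Whether each library is a different animal is not stated, and p-values therefore measure only the spread between these libraries, which may be technical. Means are given ± SD over the libraries of a group.

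Vhl mRNA was 8.97, 7.50 and 7.26 in the C libraries, 8.33 and 8.96 in KO, and 11.2, 10.9 and 8.61 in DKO, so its level did not check the labels. Levels are in units of the deposited signal, which is proportional to reads per library size after the authors' scaling. Libraries held 15028176 to 21202385 reads, and a carrier had between 19 and 108153 reads in a library. Ventricular cardiomyocyte markers (Myh6, Tnnt2, Tnni3, Actc1, Myl2 and Ryr2) were abundant in every library, with summed levels of 50400 to 53580 in C, 30100 to 33900 in KO and 30860 to 50370 in DKO. Library DKO 2 differed from the other libraries: transcripts of the mitochondrial genome made up 41.6% of its reads, against 16.2% to 29.9% elsewhere. Its 10 most abundant carriers per length had a median log2 difference of -0.80 from the C mean, against -0.01 in DKO 1 and 0.06 in DKO 3. The same median was -0.39 in KO 1 and -0.08 in KO 3. Results that rest on DKO 2 are therefore given with and without it.

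Between KO and C, Slc25a16 rose and Slc25a42, Slc25a22 and Slc25a28 fell. Each of these 4 carriers also differed between DKO and KO, in the opposite direction. Slc25a16 and Slc25a42 are related carriers linked to coenzyme A: Slc25a42 exchanges coenzyme A for adenine nucleotides, and the yeast relative of Slc25a16 is needed for coenzyme A in the matrix. Slc25a22 carries glutamate, and Slc25a28 (mitoferrin 2) brings iron into the matrix. The carriers that passed the test in KO versus C were 4 of 39 (10.3%), against 13.9% of all tested genes, so the share of carriers called was not above that of other genes.

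The start regions of the pair that moved in opposite directions are shown because HIF activity is the pathway that Vhl controls. Both come from RefSeq (GRCm38.p6), run from 250 bases before the transcript start to 50 after it, and are written 5' to 3' along the gene. Capitals mark matches to the letters ACGTG or GCGTG (the core of the HIF site), AAGGTCA (an estrogen-related receptor half-site) or GCATGCGC (the core of the NRF1 site), searched on both strands; the first pair can overlap each other.
Slc25a16, chr10:62920383-62920682, plus strand: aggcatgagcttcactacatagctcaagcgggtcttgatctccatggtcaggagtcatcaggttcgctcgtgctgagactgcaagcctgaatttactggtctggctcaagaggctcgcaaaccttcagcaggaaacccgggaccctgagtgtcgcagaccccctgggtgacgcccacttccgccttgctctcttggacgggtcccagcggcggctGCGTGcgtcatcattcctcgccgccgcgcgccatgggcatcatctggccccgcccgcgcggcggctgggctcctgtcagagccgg
Slc25a42, chr8:70212232-70212531, minus strand: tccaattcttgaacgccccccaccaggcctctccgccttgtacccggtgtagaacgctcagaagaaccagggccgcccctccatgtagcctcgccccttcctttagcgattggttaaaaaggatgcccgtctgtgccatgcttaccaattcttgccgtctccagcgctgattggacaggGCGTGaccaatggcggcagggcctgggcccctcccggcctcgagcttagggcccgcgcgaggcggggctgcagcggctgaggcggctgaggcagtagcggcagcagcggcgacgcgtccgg
Each window held 1 match, to GCGTG, beginning at -35 in Slc25a16 and at -71 in Slc25a42 relative to the start. The same letters occur in 32.4% of the 32817 RefSeq start windows of this length, and they stand in the window of the carrier that rose and in that of the carrier that fell. The window of Slc25a28 held 1 ACGTG (at -59), which occurs in 19.6% of windows, and 1 GCGTG (at -25). Slc25a22 has 3 windows: the first listed held no match to any of the 4, and GCGTG was found among the others, so the gene counts as holding it. AAGGTCA and GCATGCGC, found in 4.72% and 2.71% of all windows, were in none of the windows of these 4 genes. Of the 30 carriers with a RefSeq window, 9 had ACGTG, 18 had GCGTG, 1 (Slc25a34) had AAGGTCA and 0 had GCATGCGC. These counts are of genes with a match in any of their windows, 39 windows together. They cannot be set against the shares above, which are of single windows. A match describes the letters of the window and is not evidence of binding.

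Slc25a16 (chromosome 10, 62920633 to 62946498, GRCm38) had a signal of 6.03, 8.17 and 5.16 in C, 17.1 and 16.7 in KO, and 7.42, 6.46 and 7.81 in DKO. Both KO libraries lay above all other libraries, while C and DKO overlapped. The mean was 6.45 ± 1.55 (SD, n = 3) in C and 16.9 ± 0.239 (SD, n = 2) in KO, a rise of 1.28 ± 0.19 (SE) on the log2(value + 1) scale or 2.43-fold (limma, adjusted p = 0.00201). This call held without any single library (adjusted p from 0.00126 to 0.0279). In DKO versus KO Slc25a16 fell by 1.12 ± 0.19 (SE) (limma, adjusted p = 0.00451), and the call ended without KO replicate 3 (0.0545). A processed pseudogene on the same strand, Gm16128, lies within the bounds of Slc25a16, and how reads were divided between them is not stated.

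Slc25a42 (chromosome 8, 70184340 to 70212305) stood at 39.4, 40.5 and 45.7 in C, 18.1 and 29.1 in KO, and 48.9, 42.4 and 41.0 in DKO. The KO libraries were the lowest of the 8 but differed from each other more than the C libraries did. Slc25a42 fell by 0.84 ± 0.20 (SE) in KO versus C (limma, adjusted p = 0.0156), to 56.4% of the C mean. The call ended without KO replicate 1 (adjusted p = 0.174) or C replicate 3 (adjusted p = 0.0633). In DKO it was 1.88-fold higher than in KO (limma, adjusted p = 0.0125), which KO replicate 1 decided (0.137 without it).

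The ratio of Slc25a42 to Slc25a16 within a library, per kilobase of transcript, does not depend on the scaling between libraries. It was 5.62, 4.27 and 7.62 in C, 0.912 and 1.5 in KO, and 5.66, 5.64 and 4.52 in DKO. Slc25a42 thus had several times the level of Slc25a16 in C and DKO, and a similar level in KO. The pair was chosen after its values were seen, so the ratio is a description with no test.

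**Figure D1:**
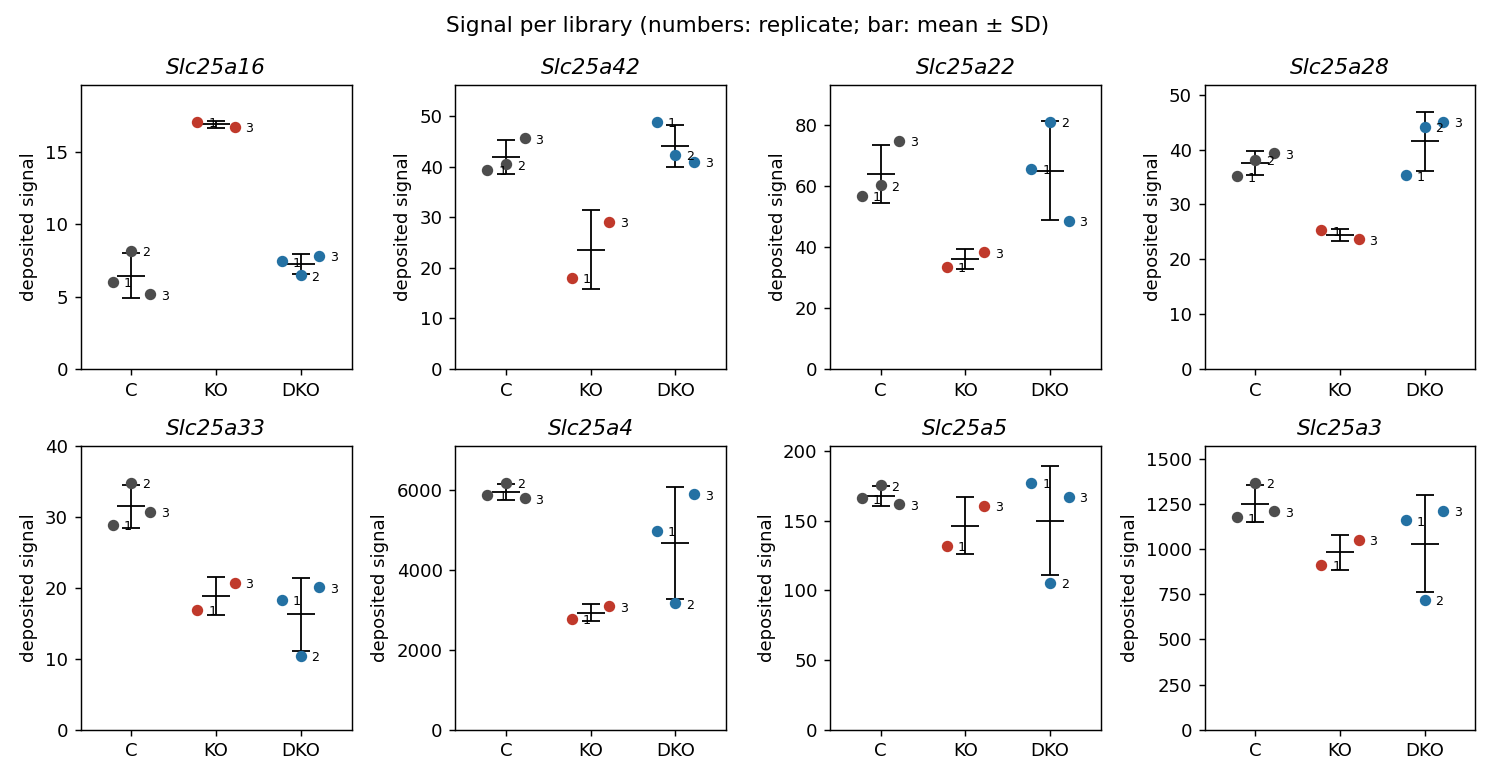
Deposited signal (vertical axes, from 0) of 8 carriers in each library of C, KO and DKO; points are libraries with their replicate number and bars are the mean ± SD. Slc25a16 sits at 16.7 and 17.1 in KO, above all other libraries, and Slc25a42, Slc25a22, Slc25a28, Slc25a33, Slc25a4, Slc25a5 and Slc25a3 have their KO libraries below those of C.

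Among the carriers of aspartate and glutamate, Slc25a22 (chromosome 7, 141429744 to 141437892) was the only one of 3 tested that passed in KO versus C. Its signal was 56.8, 60.3 and 74.9 in C, 33.6 and 38.3 in KO, and 65.8, 81.1 and 48.7 in DKO, with both KO libraries below the other 6. It fell by 0.81 ± 0.21 (SE) (limma, adjusted p = 0.0256), and the call did not survive the loss of any C or KO library (adjusted p from 0.0530 to 0.164). In DKO it was 1.76-fold higher than in KO (limma, adjusted p = 0.0294), a call that rested on C replicate 2 and on both KO libraries (adjusted p = 0.0505 without the first, and 0.124 to 0.175 without either KO library). The aspartate/glutamate carriers of the malate-aspartate shuttle, which moves reducing equivalents into mitochondria, kept overlapping groups. Slc25a12 (aralar) was 117.5 to 137.5 in C, 104.4 and 135.4 in KO, and 78.5 to 142.3 in DKO, the lowest being DKO 2. Slc25a13 (citrin) had 53.8 ± 4.69, 58.2 ± 16.6 and 49.8 ± 19.0.

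Iron, nucleotide and cofactor carriers were the largest group, with 12 tested members. Of these 1 rose (Slc25a16) and 1 fell (Slc25a28) in KO versus C, and the list's median log2 fold change was -0.19, against 0.01 over all tested genes. Slc25a28 (chromosome 19, 43663801 to 43674881) had 35.1, 38.1 and 39.3 in C, 25.3 and 23.6 in KO, and 35.3, 44.1 and 45.0 in DKO. KO lay below both other groups, which overlapped. Slc25a28 fell by 0.60 ± 0.16 (SE) in KO versus C (limma, adjusted p = 0.0275), and the call ended without any 1 of the C or KO libraries (adjusted p from 0.0689 to 0.184). It was 1.66-fold higher in DKO than in KO (limma, adjusted p = 0.0131), a call that ended without either KO library (adjusted p = 0.0661 for replicate 1 and 0.123 for replicate 3). The other mitoferrin, Slc25a37, which supplies iron for haem in red cell precursors, had overlapping groups (20.2 ± 3.98 in C, 17.4 ± 0.346 in KO and 23.6 ± 8.45 in DKO).

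Calls in DKO versus KO for Slc25a16, Slc25a42, Slc25a22 and Slc25a28 held without DKO replicate 2 (limma, adjusted p from 0.00763 to 0.0407).

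Slc25a33 (chromosome 4, 149744036 to 149774277), a carrier of pyrimidine nucleotides, showed another order of the groups. Its signal was 28.9, 34.9 and 30.7 in C, 16.9 and 20.7 in KO, and 18.4, 10.4 and 20.1 in DKO, so every KO and DKO library lay below every C library and KO and DKO overlapped. The difference from C was -0.72 ± 0.24 (SE) in KO (limma, adjusted p = 0.0656) and -0.96 ± 0.21 (SE) in DKO (limma, adjusted p = 0.200), and neither passed. Without DKO replicate 2 the KO difference had adjusted p = 0.00644, and the DKO difference was -0.68 (adjusted p = 0.208) without DKO replicate 2, its lowest library, and -1.12 (adjusted p = 0.0455) without DKO replicate 3. Both differences use the same C libraries. The second pyrimidine nucleotide carrier, Slc25a36, had overlapping groups, with 33.5 ± 4.28 in C, 29.5 ± 7.99 in KO and 27.8 ± 3.43 in DKO.

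Other cofactor carriers did not pass in any comparison. The glutathione carriers Slc25a39 (145.1 ± 2.5 in C, 119.0 ± 8.56 in KO, 142.9 ± 21.6 in DKO) and Slc25a40 (5.98 ± 0.444, 5.91 ± 0.486 and 6.29 ± 0.658) differed widely in level. Slc25a51, which carries NAD, averaged 41.6 ± 2.40 in C, 53.1 ± 7.90 in KO and 45.1 ± 3.67 in DKO. Slc25a26, which carries S-adenosylmethionine, was 21.7 ± 0.429, 16.9 ± 1.73 and 17.6 ± 5.52. Slc25a32, linked to folate and FAD, was 8.73 ± 0.444, 8.31 ± 0.407 and 7.50 ± 0.978, and Slc25a53 was 1.18 to 1.84 over all libraries, with every DKO library above every C and KO library.

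**Figure D2:**
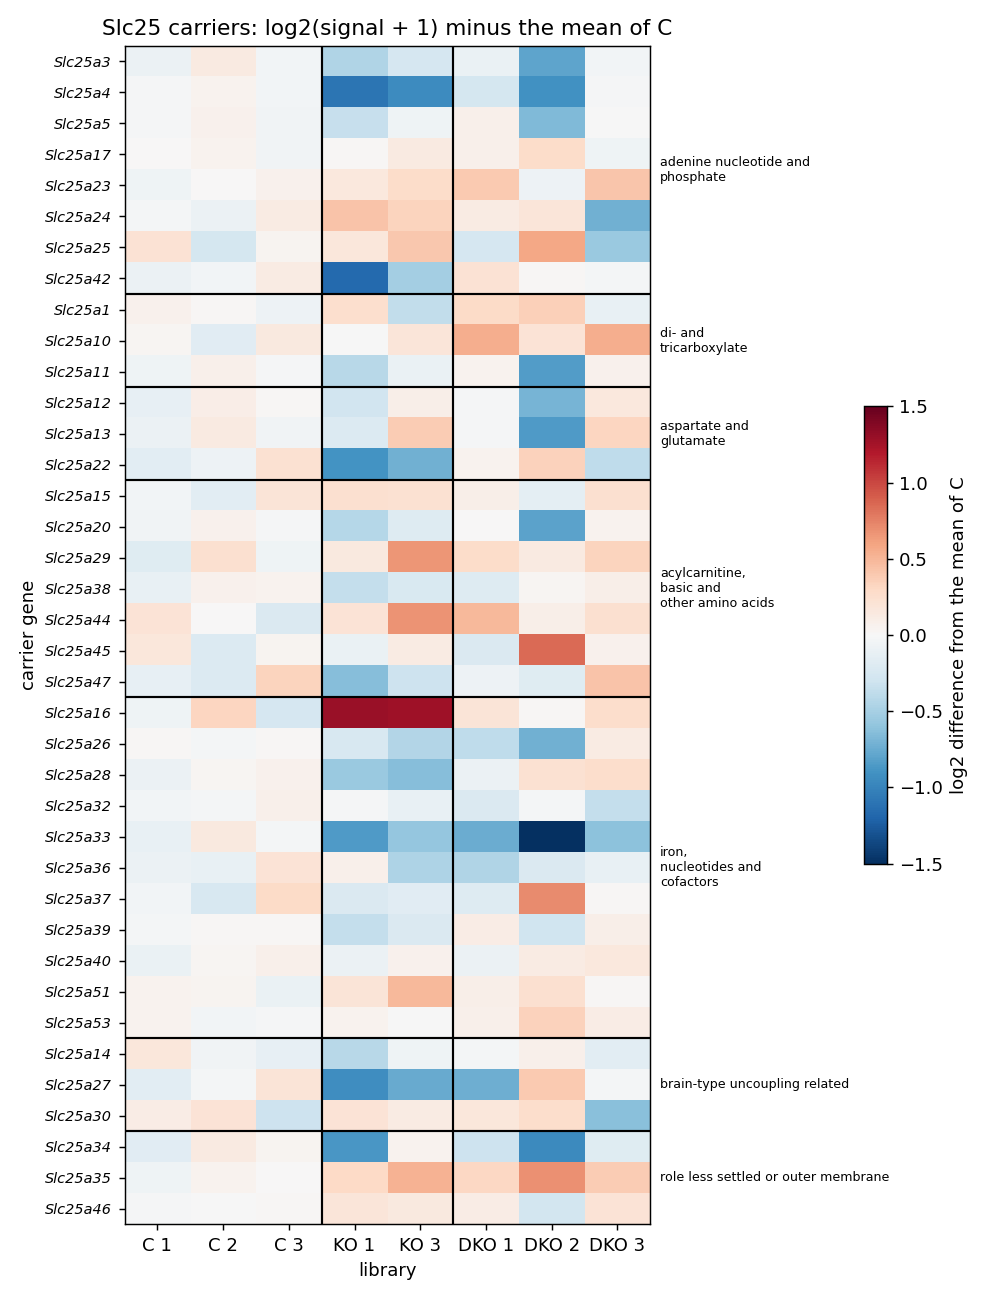
Log2(signal + 1) of the carriers described here (rows, grouped by role) in each library (columns), as the difference from the mean of C; red is higher and blue is lower. The row of Slc25a16 is dark red in both KO libraries, and DKO 2 shows blue cells at abundant carriers such as Slc25a3, Slc25a4 and Slc25a11.

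Adenine nucleotide and phosphate carriers held the most abundant transcripts. Levels of different genes are compared here per kilobase of the longest annotated transcript. On that scale Slc25a4 stood at 3090 in C, followed by Slc25a3 (310.0), Slc25a11 (221.0) and Slc25a5 (135.0), and then by Slc25a39 (86.1) and Slc25a34 (53.2). Slc25a4 made up 67.2% ± 0.787 of the summed family signal in C, 54.8% ± 1.16 in KO and 64.1% ± 2.64 in DKO, and the KO libraries lay below all others in this share (54.0% and 55.6% against 61.6% to 68.1%).

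Slc25a4 (chromosome 8, 46206797 to 46211284), named here after its values were seen, had a signal of 5879, 6181 and 5796 in C, 2777 and 3084 in KO, and 4971, 3158 and 5890 in DKO. KO lay below C and DKO, with DKO 2 close to KO. The KO mean was 49.2% of the C mean, yet the log2 fold change of -1.02 ± 0.35 (SE) missed the threshold (limma, adjusted p = 0.0724). This depended on the spread of the DKO libraries, which enters the shared error: without DKO replicate 2 the adjusted p was 0.00337, without DKO replicate 3 it was 0.0495, and with only C and KO in the fit it was 0.00175. Under quantile normalisation, which sets the most abundant genes of all libraries to equal values, the difference was 0.078 (adjusted p = 0.834). Slc25a4 in DKO versus KO, at 0.63 ± 0.35 (SE), did not pass either (limma, adjusted p = 0.260). It did without DKO replicate 2 (adjusted p = 0.0149), and quantile normalisation turned it to -0.11.

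Slc25a5, the ADP/ATP carrier found in most tissues, was 166.0, 175.5 and 161.6 in C, 131.9 and 160.7 in KO, and 177.2, 105.5 and 167.3 in DKO. Both KO libraries lay below C, by -0.20 ± 0.22 (SE) in the fit (limma, adjusted p = 0.586). Within a library the ratio of Slc25a4 to Slc25a5 per kilobase was 22.8, 22.7 and 23.1 in C, 13.6 and 12.4 in KO, and 18.1, 19.3 and 22.7 in DKO. KO had the lowest ratios, and DKO 2, whose levels of both genes were low, lay between KO and C. Reads of Slc25a4 and Slc25a5 can be divided uncertainly with near-identical copies in the genome.

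**Figure D3:**
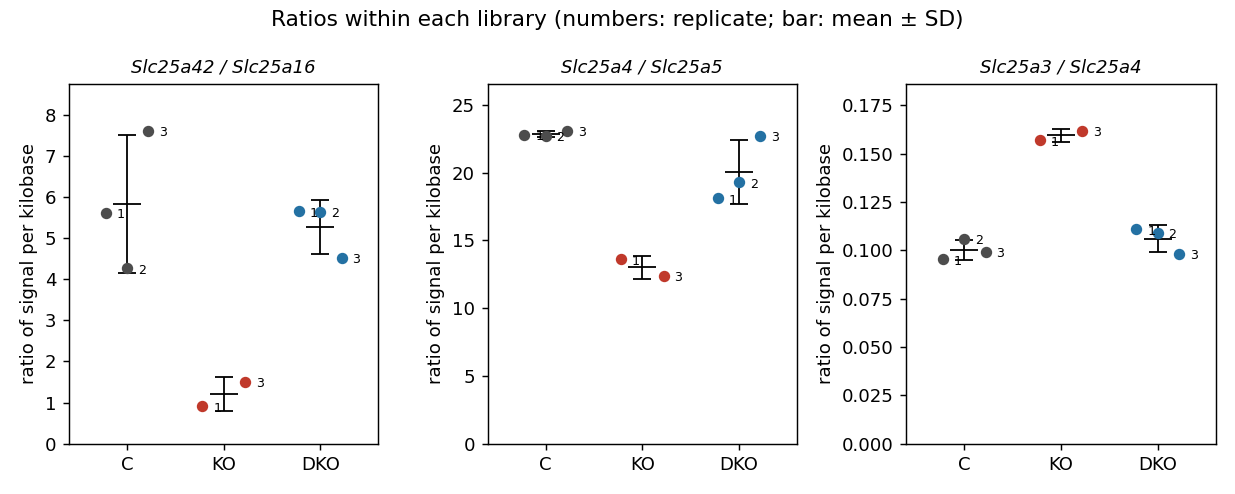
Ratios of signal per kilobase between carrier pairs within each library (vertical axes, from 0) in C, KO and DKO; points are libraries with their replicate number and bars are the mean ± SD. In KO the Slc25a42 to Slc25a16 ratio is 0.912 and 1.5 and the Slc25a4 to Slc25a5 ratio is 13.6 and 12.4, below all C and DKO libraries, while the Slc25a3 to Slc25a4 ratio is above them.

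Slc25a3 was 1176, 1368 and 1209 in C, 914.6 and 1051 in KO, and 1161, 720.4 and 1212 in DKO. KO was below C, and DKO was below KO only in DKO 2. The log2 fold change of Slc25a3 in KO versus C, -0.35 ± 0.27 (SE), did not pass (limma, adjusted p = 0.418). The ratio of Slc25a3 to Slc25a4 per kilobase averaged 0.100 ± 0.00512 in C, 0.160 ± 0.00386 in KO and 0.106 ± 0.00700 in DKO, so the carriers of phosphate and of ADP/ATP did not keep their proportion in KO. The calcium-regulated carriers of ATP-Mg and phosphate did not pass in any comparison: Slc25a23 averaged 41.0 ± 1.75 in C, 47.9 ± 2.79 in KO and 49.4 ± 9.13 in DKO, Slc25a24 was 5.25 ± 0.477, 7.13 ± 0.353 and 4.90 ± 1.83, and Slc25a25 was 6.84 ± 1.31, 8.52 ± 1.11 and 6.82 ± 3.35. The peroxisomal carrier Slc25a17 was 9.21 ± 0.405, 9.74 ± 0.612 and 9.94 ± 1.34.

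None of the 3 di- and tricarboxylate carriers passed in any comparison. Slc25a11, the oxoglutarate/malate carrier of the malate-aspartate shuttle, averaged 377.8 ± 19.8 in C, 316.6 ± 49.4 in KO and 332.0 ± 105.0 in DKO. For citrate, the carrier Slc25a1 was 10.1 ± 0.517, 9.82 ± 3.23 and 11.6 ± 2.09. The dicarboxylate carrier Slc25a10 was 13.9, 11.9 and 15.1 in C, 13.5 and 15.5 in KO, and 20.2, 15.8 and 20.3 in DKO, with every DKO library above every C and KO library. The DKO versus C difference of Slc25a10 was 0.43 ± 0.16 (SE) (limma, adjusted p = 0.553).

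Of 7 carriers of acylcarnitines and amino acids 0 passed in KO versus C. Slc25a20, which exchanges carnitine and acylcarnitines during fatty acid oxidation, was 96.3, 104.7 and 98.5 in C, 73.7 and 87.3 in KO, and 99.9, 56.6 and 103.5 in DKO (KO versus C -0.31 ± 0.23 (SE), limma, adjusted p = 0.411). KO lay below C, and DKO 2 was the lowest library. The glycine carrier Slc25a38 (19.3 ± 1.29 in C, 15.6 ± 1.08 in KO, 19.0 ± 2.02 in DKO) and Slc25a47 (5.62 ± 1.38, 3.75 ± 0.759 and 5.93 ± 1.64) had their KO libraries below all others. The branched-chain amino acid carrier Slc25a44 (9.33 ± 1.53, 13.1 ± 3.20 and 11.47 ± 1.79), the basic amino acid carrier Slc25a29 (6.38 ± 1.11, 8.85 ± 2.46 and 7.71 ± 0.609) and the ornithine carrier Slc25a15 (8.35 ± 1.2, 9.96 ± 0.0853 and 8.77 ± 1.3) had higher means in KO than in C, without passing. Slc25a45 averaged 7.41 ± 1.1 in C, 7.46 ± 0.895 in KO and 9.32 ± 4.14 in DKO, where DKO 2 was highest.

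The relatives of the uncoupling proteins were low. Slc25a27 was 5.36, 5.94 and 7.14 in C, 2.74 and 3.21 in KO, and 3.29, 8.35 and 5.96 in DKO (KO versus C -0.84 ± 0.28 (SE), limma, adjusted p = 0.0654). The KO libraries were the lowest, just under DKO 1. Slc25a14 (1.88 ± 0.312, 1.46 ± 0.417 and 1.81 ± 0.222) and Slc25a30 (7.43 ± 1.52, 8.35 ± 0.358 and 7.27 ± 2.5) had overlapping groups. Of the carriers without a settled substrate, Slc25a34 split the KO libraries, at 77.1 and 147.4, against 125.5 to 155.8 in C and 72.3 to 125.2 in DKO. Slc25a35 was 3.46 to 3.83 in C and higher in both KO (4.70 and 5.70) and DKO (4.76 to 6.46) without passing in either comparison (limma, adjusted p = 0.177 and adjusted p = 0.569). Slc25a46, a protein of the outer membrane involved in mitochondrial shape, was 34.6 ± 0.435, 38.9 ± 0.697 and 35.3 ± 6.14. Slc25a11, Slc25a25, Slc25a26, Slc25a35 and Slc25a36 overlap another gene of the table on the opposite strand, and the strand setting of the counting is not given in the sources used here.

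Over all 39 carriers the median log2 fold change in KO versus C was -0.10, from -1.02 (Slc25a4) to 1.28 (Slc25a16), with 31 carriers within 0.5 of 0. In this comparison 1 carrier rose (2.56%, against 6.9% of tested genes) and 3 fell (7.69%, against 7.01%). In 15 carriers both KO libraries lay below all C libraries (38.5%, against 26.7% of tested genes), and in 7 they lay above (17.9%, against 27.5%). An unadjusted p under 0.05 was reached by 8 carriers (20.5%), against 29.1% of tested genes. The count of 4 carriers that passed was 2 without C replicate 1, C replicate 2 or KO replicate 3, 1 without C replicate 3 or KO replicate 1, 7 without DKO replicate 3 and 8 without DKO replicate 2, and 6 without DKO replicate 1. The 8 without DKO replicate 2 included the same 4, and also Slc25a4, Slc25a27 and Slc25a33, which were lower in KO.

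**Figure D4:**
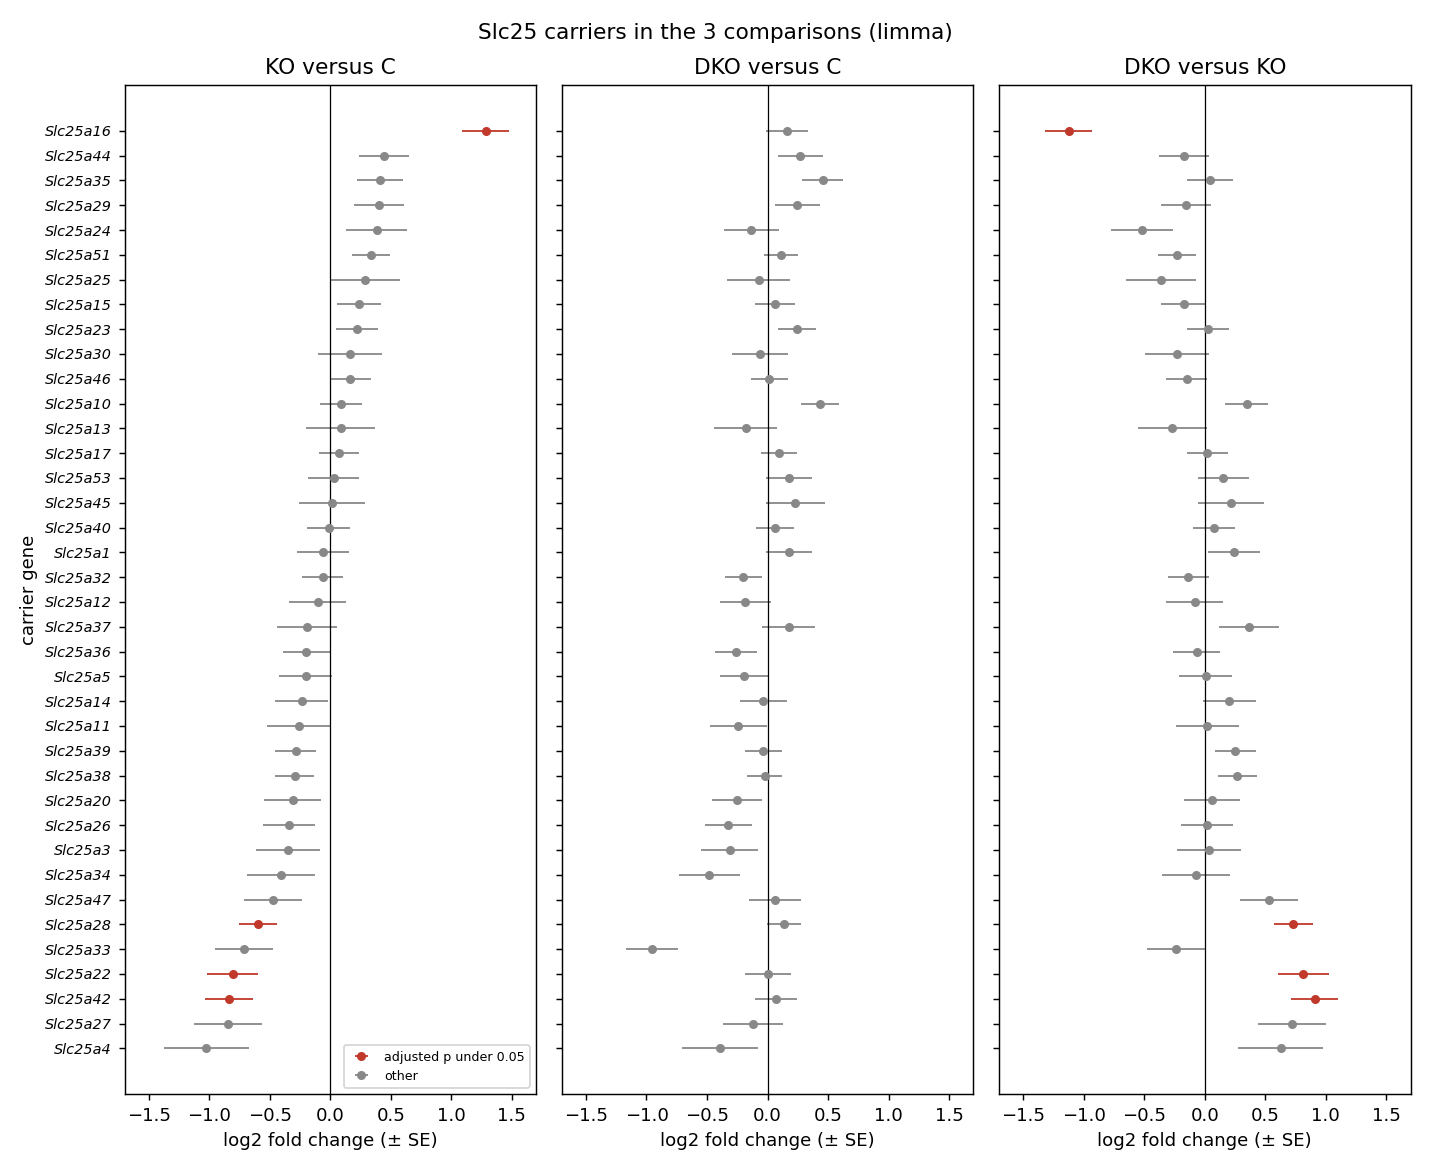
Log2 fold changes (horizontal axes, on the log2(value + 1) scale, bars ± SE) of the carriers described here in KO versus C, DKO versus C and DKO versus KO, ordered by KO versus C; red marks an adjusted p under 0.05 (limma). The carriers shown in red number 4, 0 and 4, and Slc25a33 is the lowest point in DKO versus C.

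In DKO versus C 0 of 39 carriers passed limma, against 0.155% of tested genes (0.0738% higher and 0.0812% lower). An unadjusted p under 0.05 was reached by 3 carriers (Slc25a33, Slc25a10 and Slc25a35), which is 7.69%, against 8.5% of tested genes. All DKO libraries lay above all C libraries in 3 carriers (Slc25a10, Slc25a35 and Slc25a53; 6.5% of tested genes did) and below them in 2 (Slc25a33 and Slc25a34; 7.25% of tested genes). edgeR on recovered reads also called 0 and DESeq2 called 1, Slc25a33. The median log2 fold change was 0.01, the same as over all tested genes, and the median standard error of a carrier was 0.19. A low number of calls does not show that DKO and C were alike. In DKO versus KO 5 of 39 passed (12.8%, against 11.8% of tested genes): 4 were higher in DKO (6.08% of tested genes were), among them Slc25a42, Slc25a22 and Slc25a28, and Slc25a16 was lower (5.73%). The groups did not overlap in 10 carriers that were higher in DKO than in KO (20.5% of tested genes) and in 2 that were lower, Slc25a16 and Slc25a24 (21.1%). This count of 5 was 1 without KO replicate 1 (Slc25a16) or KO replicate 3 (Slc25a42), and 3 without C replicate 2. KO versus C and DKO versus KO share the KO libraries, so they are not independent of each other.

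Other genes around the carriers were read from lists in the same fit, in which 7.01% of tested genes fell and 6.9% rose in KO versus C. These lists are short, and their counts are descriptions with no test against other genes. Among 9 genes of carrier import 3 fell in KO versus C and 0 rose: the small Tim chaperones Timm13 (106.1 ± 11.6 in C, 55.2 ± 9.81 in KO), Timm9 (18.7 ± 1.59 and 10.7 ± 2.05) and Timm8b (60.1 ± 3.07 and 39.0 ± 3.53). Mpc2, a subunit of the mitochondrial pyruvate carrier, fell from 339.7 ± 12.4 to 177.0 ± 6.65 (limma, adjusted p = 0.0119), while Mpc1 was 371.8 ± 35.0 and 284.9 ± 22.5. Ucp3, a member of the carrier superfamily under another symbol, fell from 81.1 ± 16.2 in C to 18.3 ± 2.92 in KO and was 60.8 ± 11.1 in DKO. Of 4 carnitine shuttle enzymes 1 fell (Cpt1b, the muscle form of carnitine palmitoyltransferase, from 565.6 ± 41.0 to 323.9 ± 49.5), and of 6 calcium uniporter genes 1 fell (Smdt1, from 170.3 ± 8.93 to 88.3 ± 12.8). None of the 3 outer membrane channels (Vdac1, Vdac2, Vdac3) or 4 malate-aspartate shuttle enzymes passed. In DKO versus C 0 genes of these lists passed limma, and in DKO versus KO Ucp3, Timm13 and Smdt1 rose.

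Markers of skeletal muscle and some markers of fibroblasts differed between the groups. All 6 skeletal muscle markers (Myh4, Myh1, Atp2a1, Actn3, Tnnt3 and Pvalb) fell in KO versus C and in DKO versus C, with summed levels of 53.5 to 384.0 in C, 0.624 to 1.06 in KO and 2.77 to 12.2 in DKO; Myh4, Myh1 and Pvalb had 0 reads in at least 1 library. Of 6 fibroblast markers 3 (Col1a1, Col1a2 and Col3a1) rose in KO. Sums over the 6 were 450.9 to 694.1 in C, 1089 to 1408 in KO and 484.5 to 1102 in DKO. Pdgfra went the other way without passing, at 17.5 and 16.2 in KO against 19.0 to 23.7 in C. Dcn and Lum had overlapping groups in KO and C. Of 6 cardiomyocyte markers 1, Tnni3, fell in KO. Myh6, Myl2 and Tnnt2 had their KO libraries below C without passing, and Ryr2 overlapped. Actc1 went the other way without passing, at 7865 and 8892 in KO against 6029 to 7052 in C. Wt1, the epicardial gene that drives Cre in this model, was 2.42, 4.73 and 3.12 in C, 7.62 and 7.02 in KO, and 4.85, 6.46 and 3.60 in DKO. It rose by 0.94 ± 0.26 (SE) on the log2 scale in KO versus C (limma, adjusted p = 0.0302), with both KO libraries above the other 6. No tested marker of endothelium, macrophages, adipocytes, erythroid cells or atrium passed in KO versus C, and Adipoq, Lep, Ucp1 and Bmp10 were not analysed here. In bulk RNA fewer cells of a type and less RNA per cell cannot be told apart, and the part of these markers in the carrier results was not tested.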

How the data were processed

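Polyadenylated RNA of 8 ventricular samples was sequenced on a NovaSeq, as the labels' protocols state. Per the submitters' processing notes, the tools were cutadapt, limma and RSEM 1.3.1, on GRCm38, with no roles stated. Strand setting and annotation: not given in the sources used here. Per gene, the authors deposited a normalised signal: each value is a whole number of reads plus 0.5, relative to a scaled library size, as read from the values (100% whole within 0.001 reads). The scaled size was 0.925 to 0.964 times the reads for C libraries, 1.36 to 1.37 times for KO and 0.705 to 1.06 times for DKO. No replicate repeats another: the chi-square between replicates was 13.6 or more per gene.

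Log2(value + 1) was fitted with limma 3.58.1 (R 4.3.3) over all 8 libraries as 3 group means, with a trend of variance on level and 5 residual degrees of freedom. Benjamini-Hochberg adjustment ran over the 13544 genes that reached 1 in 2 or more libraries, with a threshold of 0.05. Folds are 2 to the power of the log2 change, which understates the change of low genes. On recovered reads, edgeR 4.0.16 called 2045 genes in KO versus C, 25 in DKO versus C and 1692 in DKO versus KO; DESeq2 1.42.0 was a further alternative. Coordinates, overlaps and transcript lengths are from GENCODE M21 (GRCm38; 13666 of 13677 identifiers matched). RefSeq start windows matched 30 of 39 carriers by symbol.

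The carriers, role lists and tests were chosen with earlier results of these data known. Named in full are carriers that passed in any comparison and were among the 10 largest changes or 10 highest levels, and in DKO versus C the 3 with the smallest p; Slc25a4, Slc25a5, Slc25a3, Slc25a20, Slc25a27 and Slc25a33 in KO versus C were added after their values were seen. The values of 1 carrier are not reported here; it is included in the counts, sums and medians.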

Additional observations from a re-analysis of the deposited data

How the results depend on the processing

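Each comparison was repeated under 19 other settings. Slc25a16 passed in KO versus C under all 19, with log2 differences from 1.16 to 1.44, Slc25a42 under 17, and Slc25a22 and Slc25a28 under 13 each; their directions held throughout. With 1 library left out, genes called ranged from 449 to 2966 in KO versus C, 4 to 90 in DKO versus C and 334 to 1991 in DKO versus KO, and carriers called from 1 to 8, 0 to 1 and 1 to 6. A group left with 1 library is assumed to vary like the others. With only the compared groups in the fit, 3606 genes and 8 carriers passed in KO versus C, and 730 genes and 2 carriers in DKO versus KO. DESeq2 called 8 carriers in KO versus C, and 69 genes and 1 carrier in DKO versus C. With the replicate number as a block, 2 carriers passed in KO versus C (Slc25a16 and Slc25a42) and 3 in DKO versus KO (also Slc25a28). Whether equal numbers pair the samples could not be decided. Deviations of C and DKO libraries with the same number correlated at 0.191, -0.274 and 0.140. Not every library correlated best with its own number. Only these 3 pairs of equal number were examined, with DKO 2 among them, and the KO libraries were left out. Quantile normalisation turned the Slc25a4 difference to 0.078 in KO versus C and -0.11 in DKO versus KO. No alternative scaling moved the median of all genes by over 0.1. With 2 or 3 libraries a group, the spread between libraries limits the precision for abundant carriers; for Slc25a53 and Slc25a14, with 19 to 50 reads a library, counting error adds to it.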

Other observations

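Slc25 reads, as a share of the reads outside the mitochondrial genome, were 1.06%, 1.16% and 1.14% in C, 0.818% and 0.941% in KO, and 1.07%, 0.619% and 1.09% in DKO. DKO 2 thus had the lowest share of all libraries, and DKO 1 and DKO 3 lay within the range of C. Without Slc25a4 the summed family signal was 2757 to 3081 in C, 2216 and 2630 in KO, and 2824, 1971 and 2924 in DKO. On this signal the KO libraries lay below C without that gene too. The signal carries the authors' scaled library size, which was 1.36 to 1.37 times the reads in KO and 0.925 to 0.964 times in C. As a share of the reads outside the mitochondrial genome, the family without Slc25a4 was not lower in KO than in C. On that measure KO 1 lay within the range of C and KO 3 above it, so the order depended on the scaling.

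Across the 39 carriers, which share libraries and scaling, the change in KO versus C had a rank correlation of -0.40 with the mean log2 level and 0.21 with transcript length, beside -0.12 and 0.26 over all genes. In DKO versus KO it had a rank correlation of 0.45 with GC content, beside 0.18 over all genes. For DKO versus C the rank correlation with the mean log2 level was -0.42, beside -0.21 over all genes. These are descriptions across genes, which are not independent replicates.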
